A study of Mus musculus with 19 samples.

Results

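The comparison set 3 libraries of Tet3-/- epiblast-like cells (EpiLC; XX mutants 1, 3 and 4) against 3 libraries of wild-type XX EpiLC. All genes with at least 1 TPM, an abundance per transcript corrected for its length and for library size, in at least 3 of these 6 libraries were kept, which were 12114 of the 54119 genes in the annotated table. The series held 19 libraries of XX, XY and Tet3-/- cells, as mouse embryonic stem cells (mESC) and as EpiLC, with the question of what loss of TET3 does as cells move from the first state to the other. The XX and the Tet3-/- cells both carried the LF2 line label, with the genotypes wildtype and Tet3-/-. Before the switch, the cells of both genotypes were kept in N2B27 medium with inhibitors of GSK3 and of MEK1/2 and with LIF, and EpiLC were made from them by 5 days in FGF5 and Activin A without LIF. The mESC of mutants 1 to 4 and of 3 XX libraries serve as a second contrast, and 3 XY EpiLC libraries (E14 line, wildtype) as a reference. Mutant 2 was analysed here in mESC only. All labels report RNA of high integrity. The labels do not say how the Tet3 allele was made, which exons it lacks, whether each mutant is 1 clone, or whether XX libraries came from separate cultures, so p-values measure only the spread between these libraries.

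TET3 belongs to a family of 3 dioxygenases that oxidise 5-methylcytosine in DNA, a first step in removing methylation. EpiLC model the formative state, in which cells switch off naive pluripotency genes such as Esrrb and Zfp42, keep Pou5f1, and switch on Fgf5, Otx2 and the de novo methyltransferases. Genes of the germline and of the X-linked Xlr cluster are commonly kept silent by promoter methylation.

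All levels below are TPM divided by a median-of-ratios factor per library (scaled TPM), and differences are log2(scaled TPM + 1) of Tet3-/- minus XX, a scale that understates changes of genes with low values. A gene was called where limma's Benjamini-Hochberg adjusted p over all 12114 genes was under 0.05. In Tet3-/- EpiLC, 180 genes (1.49%) were called higher and 261 (2.15%) lower. Of these calls, 10 were of genes that passed the filter through the mutants alone and 47 through XX alone, and such genes could hardly be level. A further measure, every Tet3-/- library beyond every XX library, held for 1724 genes (14.2%) on the high side and 1859 (15.3%) on the low side. Mutant 3 stood apart: it lay over 1 log2 unit above all other 5 libraries at 144 tested genes and below them at 179, where each other library did so at 3 to 14 and 6 to 11. Without it, 847 of 11838 genes (7.15%) were called higher and 988 (8.35%) lower, and 431 of the 441 genes called with all libraries were among them in the same direction. In that fit a gene could pass the filter through the XX libraries alone, but not through mutants 1 and 4 alone. Lower counts given below without mutant 3 may therefore hold genes whose level the filter set. The number of calls rested on single control libraries: 7, 3 and 14 genes were called in all without XX library 1, 2 or 3, against 197 without mutant 1 and 96 without mutant 4. It rested also on scaling. Of the calls, 40.8% were higher with median-of-ratios scaling, 14.3% of 42 with TPM as deposited and 8.26% of 218 with TPM rescaled over nuclear protein-coding genes, where the median of all genes lay at -0.09 and -0.14.

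Tet3 (chromosome 6, 83362373 to 83459084, minus strand, GRCm38) was looked at first as a check of the label. It had 1.27, 1.74 and 1.70 scaled TPM in XX EpiLC and 1.19, 0.973 and 0.950 in mutants 1, 3 and 4, a log2 difference of -0.33 (SE 0.13, limma adjusted p 0.218). All 3 mutants lay below all 3 XX libraries, and the gene was not called. The coding transcript Tet3-202 had 0.694, 1.1 and 0.968 deposited TPM in XX and 0.464, 0.945 and 0.367 in the mutants, and Tet3-203 had 0.335, 0.482 and 0.635 against 0.331, 0.258 and 0.198. Without the position of the deletion these levels neither check nor contradict the label. Of the other oxidases, Tet1 had 13.6, 17.4 and 15.3 scaled TPM in XX and 6.34, 13.5 and 7.00 in mutants 1, 3 and 4, and Tet2 had 2.42, 2.65 and 2.41 against 1.42, 1.59 and 1.19. Neither passed the test with all libraries (limma adjusted p 0.171 and 0.0534), and both did without mutant 3 (0.00454 and 0.0127).

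The EpiLC label was checked against defining markers. On a scale shared with mESC, Esrrb, a naive pluripotency factor, had 91.4 to 116 scaled TPM in XX mESC and 11.8 to 12.6 in XX EpiLC. Klf4, another naive factor, had 46.9 to 50 in XX mESC and 1.12 to 1.3 in XX EpiLC. Dnmt3b, a de novo methyltransferase, was at 4.03 to 8.81 in XX mESC and 24.6 to 25.7 in XX EpiLC, and Fgf5, the epiblast growth factor gene, went from at most 0.0128 to between 2.27 and 2.52. Otx2, a formative factor, was not higher in XX EpiLC (10.5 to 11.0) than in XX mESC (15.1 to 24.4). The XX control EpiLC therefore held Pou5f1 and Dnmt3b beside Fgf5 at a low level and Zfp42, a naive marker, at 16.0 to 17.9. XY EpiLC, of the E14 line, had 38.4 to 40.7 scaled TPM of Fgf5 and 4.65 to 5.12 of Zfp42 on the scale of the 9 EpiLC libraries, against 2.66 to 2.96 and 18.7 to 21.1 in XX. These are bulk libraries, in which fewer cells of a type and less RNA per cell cannot be told apart.

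Of 13 tested naive pluripotency genes, 5 were called lower in Tet3-/- EpiLC and 0 higher, 12 had a negative difference, and 11 were lower in every mutant than in every XX library. Their median difference was -0.77, with 0.01 for all tested genes, and -0.81 without mutant 3, when 11 genes were called lower. Esrrb had 11.7, 12.4 and 12.0 scaled TPM in XX EpiLC and 1.88, 4.83 and 3.45 in mutants 1, 3 and 4, a log2 difference of -1.63 (SE 0.24, limma adjusted p 0.0241). Tfcp2l1, a LIF target that holds the naive state, had 9.21, 10.1 and 9.46 against 3.27, 3.53 and 2.98, a difference of -1.32 (SE 0.10, adjusted p 0.00349). In both genes the mutants were far below the controls, and mutant 1 was lowest for Esrrb. Zfp42 fell by 1.15, Fgf4, the autocrine differentiation signal, by 1.11, and Nanog, a core factor of naive cells, by 0.71. In Nanog the XX libraries held 37.0 to 40.1 and the mutants 20.3 to 25.3 scaled TPM. Klf5, a naive factor, showed how mutant 3 set the test: it had 21.2 to 22.7 in XX, 4.84 and 6.22 in mutants 1 and 4, and 17.2 in mutant 3. Its difference was -1.32 (adjusted p 0.136) with mutant 3 and -1.81 (adjusted p 0.000987) without it. Klf4 and Stat3 overlapped between the groups. Nr5a2 passed the filter through the XX libraries alone, so its low level in the mutants is partly set by the filter, and Prdm14 and Gbx2 were under it. With mutant 3 left out, Klf2, Tbx3 and Nr0b1 passed through XX alone too, each under 1 TPM in mutants 1 and 4. The 11 genes called lower without mutant 3 include such genes.

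Sox2, which pairs with Pou5f1 in both naive and primed cells, was lower as well. It had 15.4, 14.5 and 15.5 scaled TPM in XX and 6.35, 6.83 and 7.96 in the mutants, a difference of -1.01 (SE 0.11, adjusted p 0.0121). Pou5f1 itself had 195 to 217 in XX and 165, 238 and 227 in mutants 1, 3 and 4, which overlapped (difference 0.02, adjusted p 0.953). Lin28a, an RNA-binding protein that blocks let-7 maturation, was the 1 gene of the 8 core pluripotency genes called higher, at 47.2 to 51.0 in XX and 64.7 to 80.9 in the mutants.

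Formative genes were in part higher. Of 13 tested genes, 4 were called higher and 0 lower, and the median difference was 0.60. Without mutant 3 the median was 0.26, with 5 genes called higher and 1 lower. Otx2 had 10.9, 10.5 and 10.3 scaled TPM in XX and 19.3, 15.3 and 17.3 in mutants 1, 3 and 4, a difference of 0.65 (SE 0.11, adjusted p 0.0313). Sox3, an X-linked relative of Sox2, had 1.12, 1.29 and 1.00 against 3.42, 2.21 and 3.42 (difference 0.90, adjusted p 0.0363). Mutant 3 was the lowest of the mutants in both genes and still lay above XX. Zic2, an epiblast zinc-finger factor, differed by 0.89 and Sall2 by 0.60. Fgf5 was not called with all libraries: it had 2.23 to 2.49 in XX, 4.31 and 4.92 in mutants 1 and 4, and 30.0 in mutant 3. Without mutant 3 its difference was 0.73 (adjusted p 0.00584). Pim2 and Pou3f1 were likewise highest in mutant 3, with mutant 3 at 31.9 and 12.4 and all other libraries at or below 2.66 and 4.68. Tcf15, an early formative marker, had 3.88 to 4.14 in XX and 1.37 to 2.66 in the mutants, and was called lower without mutant 3 alone (adjusted p 0.117 with it and 0.0368 without).

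**Figure D1:**
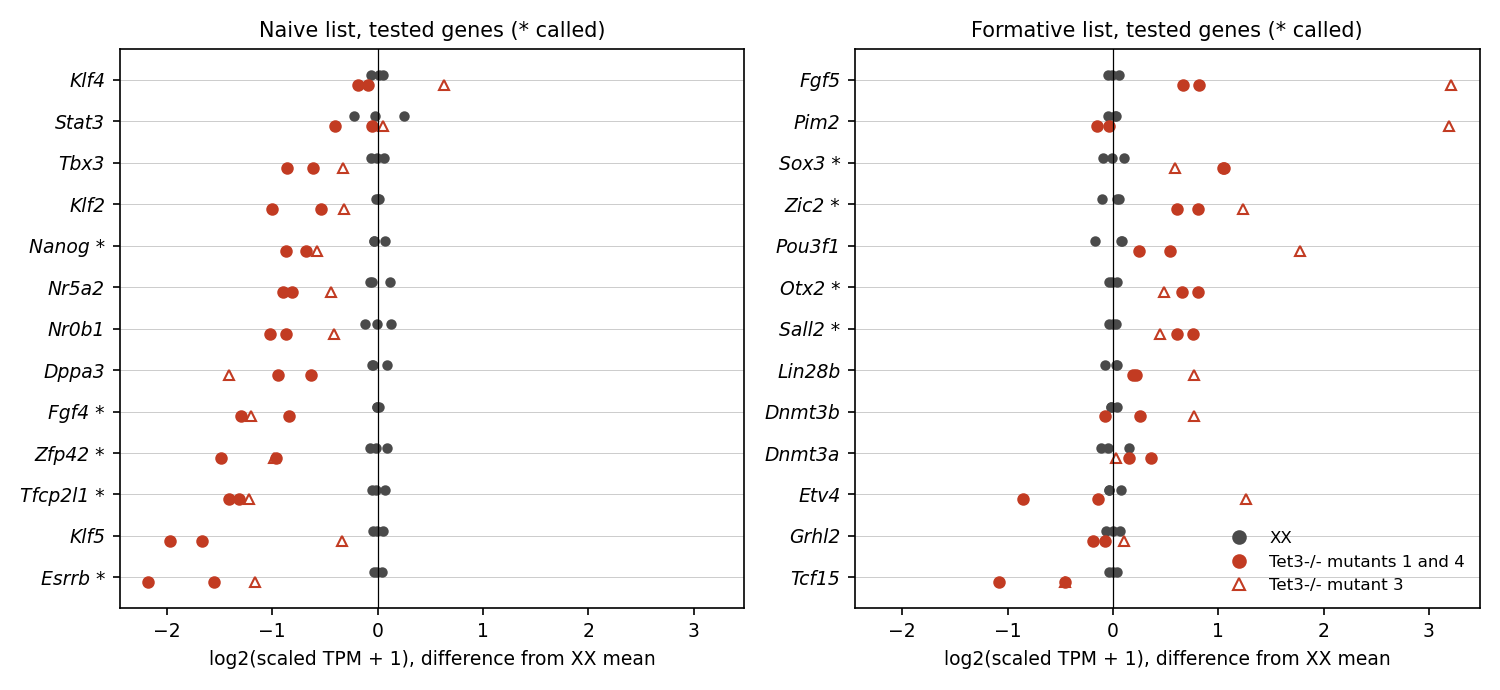
Each point is 1 library, placed at its log2(scaled TPM + 1) minus the mean of the 3 XX EpiLC libraries, for the 13 tested genes of the naive list and the 13 of the formative list. Open triangles are mutant 3, which lies nearer to XX for Klf5 and beyond all libraries for Fgf5 and Pim2.

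Mutant 3 differed from the other 5 libraries also in genes of the primitive streak, most of which the filter on low values removed. T (Brachyury), the defining factor of the primitive streak, had 0.556 to 1.13 scaled TPM in XX EpiLC, 1.46 and 1.38 in mutants 1 and 4, and 76.3 in mutant 3, on the scale of the 9 EpiLC libraries. Mixl1, a streak homeobox gene, had at most 0.104 in the other 5 libraries and 10.4 in mutant 3, and Eomes, a T-box gene of the streak, had 2.26 to 3.69 and 14.1. Mutant 3 was thus the single high library of the Tet3-/- group. Of 14 mesendoderm genes, mutant 3 was the highest of the 6 libraries for 12, and more than 2 times the next highest for 11; Lhx1 (6.07), Gsc (4.37), Foxa2 (4.26) and Sox17 (2.72) were each at most 0.183 in the other 5 XX and Tet3-/- libraries. Only 2 of the 14 genes passed the filter, and neither was called. The XY libraries were above all XX libraries for 9 of the 14, with T at 13.8 to 17.6 and Foxa2 at 2.37 to 2.92, and held at most 0.2 of Mixl1. The summed scaled TPM of the list was 7.33 to 8.07 in XX, 9.77 and 10.6 in mutants 1 and 4, and 119 in mutant 3.

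**Figure D2:**
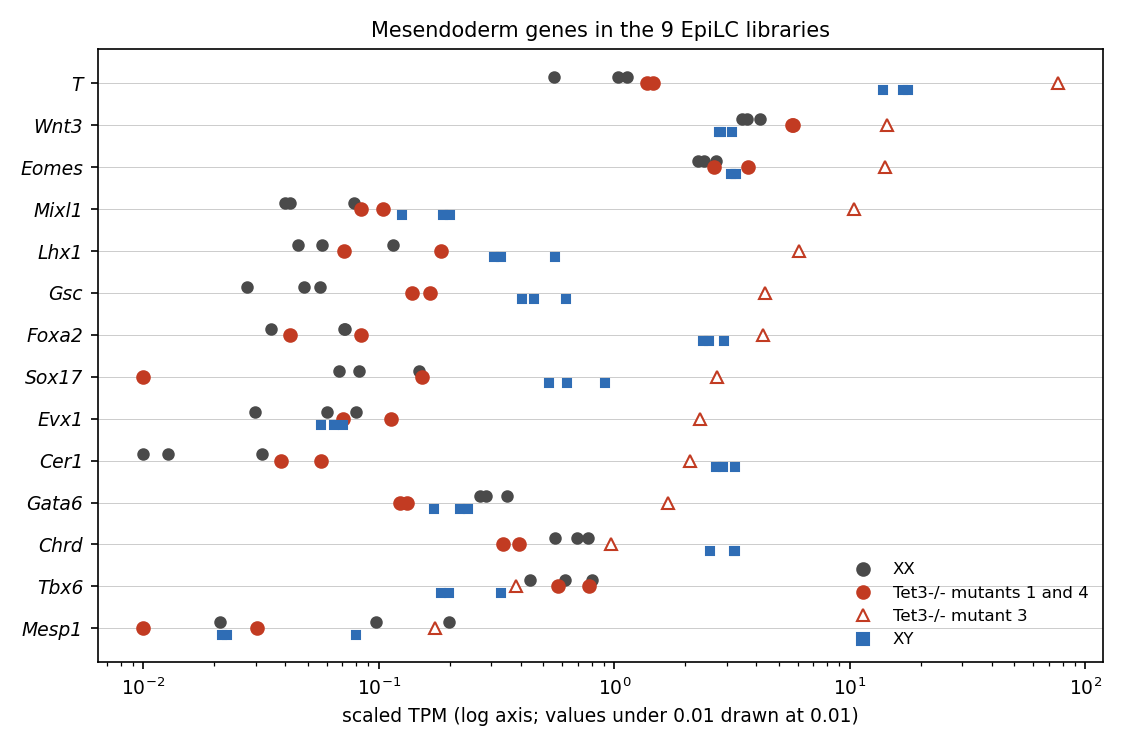
Scaled TPM on a log axis of the 14 mesendoderm genes in the 9 EpiLC libraries, sorted by mutant 3. Mutant 3 is the highest of the XX and Tet3-/- libraries for 12 of the genes, and mutants 1 and 4 lie with XX for most of them.

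Outside that list, mutant 3 was high in Fst, the activin antagonist follistatin, at 37.9 scaled TPM against at most 2.83 in the other XX and Tet3-/- libraries, and low in Fabp3, a fatty-acid carrier, at 36.0 against 297 to 523. Apoe, the lipid carrier, was at 151 in mutant 3 and 730 to 1044 in the other 5. Of the 144 high genes 0 were called in the contrast and of the 179 low ones 1. The choice of these genes sets mutant 3 far from mutants 1 and 4. Such a spread within the group leaves little room for a call, so nothing is read from these counts. XY EpiLC lay beyond all XX libraries in the same direction at 83 of the 144 (57.6%) and 134 of the 179 (74.9%), while over all 12114 tested genes every XY library lay above every XX library at 33.8% and below at 34.5%. In mutant 3 the Y-linked gene Eif2s3y was listed at 0, against 44.5 to 65.5 deposited TPM in XY EpiLC, and Hprt had 123 against at most 0.692 in XY EpiLC. X-linked genes, as a median over 268 genes with at least 5 scaled TPM, were -0.15 log2 units from the XX mean in mutant 3, -0.01 and -0.06 in mutants 1 and 4, and -0.26 to -0.25 in XY. Rn7s1, a signal recognition particle RNA, took 33.4% of TPM in mutant 3 and 38.9% to 43.7% in the other 5, and protein-coding genes 39.2% against 29.7% to 32.5%. What part these differences have in the results was not tested.

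Of the 12 highest named genes, 5 were Xlr genes (X-linked lymphocyte-regulated), a rodent gene cluster on the X chromosome whose members encode nuclear proteins related to SYCP3. The promoters of 4 members, at least 1 of each subfamily, are shown because the genes were called and their CG content bears on the methylation that TET enzymes act on; no methylation was measured in these files. In each the letters run from 250 bases before to 50 after the RefSeq start (GRCm38.p6), and capitals mark each CG dinucleotide, where DNA methylation is placed.
Xlr3b, chrX:73191929-73192228, plus strand: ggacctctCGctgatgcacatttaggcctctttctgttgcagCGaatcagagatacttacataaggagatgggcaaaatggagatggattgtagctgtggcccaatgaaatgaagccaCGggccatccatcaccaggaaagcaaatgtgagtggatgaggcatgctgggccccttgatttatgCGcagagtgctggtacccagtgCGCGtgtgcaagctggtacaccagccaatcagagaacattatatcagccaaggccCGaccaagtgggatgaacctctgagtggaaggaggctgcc
Xlr3a, chrX:73097046-73097345, minus strand: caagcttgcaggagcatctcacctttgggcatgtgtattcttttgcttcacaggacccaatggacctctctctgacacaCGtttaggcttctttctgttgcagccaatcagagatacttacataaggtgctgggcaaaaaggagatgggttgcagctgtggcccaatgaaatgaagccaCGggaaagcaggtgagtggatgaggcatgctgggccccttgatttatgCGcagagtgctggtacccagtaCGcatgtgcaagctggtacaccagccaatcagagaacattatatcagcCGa
Xlr4a, chrX:73082458-73082757, minus strand: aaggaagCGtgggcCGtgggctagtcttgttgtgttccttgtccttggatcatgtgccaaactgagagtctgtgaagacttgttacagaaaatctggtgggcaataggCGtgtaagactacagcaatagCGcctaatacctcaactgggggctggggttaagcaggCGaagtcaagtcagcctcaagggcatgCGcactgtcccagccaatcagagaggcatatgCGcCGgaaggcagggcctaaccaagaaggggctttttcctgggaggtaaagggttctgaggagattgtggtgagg
Xlr5a, chrX:73117653-73117952, minus strand: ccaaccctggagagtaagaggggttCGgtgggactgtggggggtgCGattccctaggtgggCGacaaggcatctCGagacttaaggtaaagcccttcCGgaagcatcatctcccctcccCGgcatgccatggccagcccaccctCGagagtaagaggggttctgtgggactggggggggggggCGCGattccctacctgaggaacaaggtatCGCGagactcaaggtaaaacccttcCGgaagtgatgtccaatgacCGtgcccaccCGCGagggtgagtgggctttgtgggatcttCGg
The motif CG, which reads the same on both strands, occurred 7 times in Xlr3b, 5 in Xlr3a, 8 in Xlr4a and 16 in Xlr5a. Over 32851 RefSeq promoters of that length the median was 7, 94.6% held at least 1, and 33.0% held 16 or more. The Xlr3b and Xlr3a windows shared an unbroken stretch of 58 bases, and those of Xlr5a and Xlr5b one of 255.

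Xlr3, Xlr4 and Xlr5 genes were higher in Tet3-/- EpiLC. Of the 9 family genes tested on chromosome X, counting Fthl17c of a neighbouring family in the list, 8 were called higher. Xlr3c, Xlr4b, Xlr4c and Xlr5b passed the filter through the mutants alone and so had to differ. Xlr5a, with 0.974, 0.871 and 1.26 deposited TPM in XX, would not have passed without the high mutants either. Only Xlr3a, Xlr3b and Xlr4a are read as results. These and Xlr5a were called without mutant 3 too. Xlr3b had 2.25, 2.05 and 2.30 scaled TPM in XX EpiLC and 19, 18 and 15.1 in mutants 1, 3 and 4, a 7.89-fold higher mean and a log2 difference of 2.52 (SE 0.11, limma adjusted p 0.00187). Xlr3a had 4.92, 5.28 and 4.59 against 39.7, 22.1 and 28.5, a 6.11-fold higher mean (difference 2.35, adjusted p 0.00530). Xlr4a rose from 1.67 ± 0.330 to 8.97 ± 3.09 (SD, n = 3, limma adjusted p 0.0187). Every mutant, mutant 3 included, lay above every XX library in Xlr3a, Xlr3b and Xlr4a. Xlr5a, not read as a result, had 0.990 ± 0.157 in XX and 6.70 ± 0.885 in the mutants (SD, n = 3). The 4 genes that passed through the mutants alone had at most 0.830 in XX and 1.5 to 7.88 in the mutants. Of the untested members Xlr5c had 0.0546 to 0.0818 and 0.843 to 1.45, and Xlr 0.0620 to 0.158 and 0.721 to 0.824. Fthl17c had 1.86 to 2.42 in XX and 5.42, 2.14 and 4.81 in mutants 1, 3 and 4, and was called without mutant 3 alone. The Xlr3, Xlr4 and Xlr5 genes lie on chromosome X between 73074345 and 73292976. Reads of the family are hard to assign: 55.8% to 94.2% of the 31-base words of each Xlr3, Xlr4 and Xlr5 gene's transcripts recur in another of them, so the split among members is uncertain.

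In mESC the Xlr genes were on in both genotypes. On the shared scale Xlr3a had 35.7 to 48.4 scaled TPM in XX mESC and 51.6 to 55.0 in Tet3-/- mESC, so in XX it was at 4.66 to 5.36 after the 5 days in EpiLC medium and in the mutants at 22.1 to 40.1. The difference between the states was 2.06 (SE 0.25, limma adjusted p 0.00459 over 13679 genes). For Xlr3b the mESC libraries had 15.2 to 42.6 and 28.7 to 49.3, and the difference between the states did not pass (2.13, adjusted p 0.0767), nor did it for Xlr4a (1.62, adjusted p 0.0572) or Xlr5a (1.09, adjusted p 0.527). Of the 426 tested X-linked genes, 26 were called higher and 15 lower. Over all 12114 tested genes the shares called were 1.49% higher and 2.15% lower. Xlr genes were 8 of the 26 (30.8%). Of the 26, 7, with Xlr3c, Xlr4b, Xlr4c and Xlr5b among them, passed the filter through the mutants alone. Xist, the RNA that coats the inactive X, had 26.1, 30.5 and 29.3 scaled TPM in XX EpiLC and 25.9, 32.6 and 19.6 in mutants 1, 3 and 4, which overlapped.

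The other protein-coding genes among the highest 12 were Nxf3, a germline RNA export factor, and Gm364, both X-linked, Cxcl10, an interferon-induced chemokine, Aim2, a cytosolic DNA sensor, Stmn2, a neuronal microtubule regulator, and Dusp10, a phosphatase of p38 and JNK. Nxf3 had 0.946, 1.22 and 0.874 scaled TPM in XX and 7.77, 7.02 and 4.49 in the mutants (difference 1.86, SE 0.19, adjusted p 0.0113). Cxcl10 had 1.61, 1.56 and 1.40 against 6.01, 7.16 and 4.56 (difference 1.43, SE 0.16, adjusted p 0.0126). Both are on in all mutants at several times the control level. Nxf3, with 0.901, 1.29 and 0.978 deposited TPM in XX, would not have passed the filter without the high mutants. Aim2 and Stmn2 had means of 9.88 ± 1.73 and 25.9 ± 2.75 in the mutants and 3.18 ± 0.281 and 9.71 ± 0.703 in XX (SD, n = 3). Gm26004, a short gene annotated as ribosomal RNA, was listed at 0 in all XX libraries and had 4.18, 4.67 and 7.79 scaled TPM in the mutants, through which alone it passed the filter. Aim2, Dusp10 and Gm26004 lie in a stretch of chromosome 1 described below.

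Among the 12 lowest, Msln, the surface protein mesothelin, had 8.21, 9.08 and 9.70 scaled TPM in XX and 0.684, 0.823 and 1.11 in mutants 1, 3 and 4, a 10.3-fold higher mean in XX (difference -2.42, SE 0.13, adjusted p 0.00227). Laptm5, a lysosomal membrane protein known from blood cells, had 11.0, 13.7 and 12.9 against 1.17, 2.10 and 1.82, a 7.40-fold higher mean in XX (difference -2.34, SE 0.16, adjusted p 0.00245). The mutants were low throughout in both genes. Msln, with 0.573, 1.20 and 0.809 deposited TPM in the mutants, would not have passed the filter without the high XX libraries. In mESC Laptm5 had 8.94 to 15.9 in XX and 9.42 to 14.0 in Tet3-/-, and the difference between the states was -2.48 (adjusted p 0.00459). Fam25c fell by 2.27, Gstp2, a glutathione transferase, by 1.90, Grtp1, a GTPase regulator, by 1.90, C2, a complement component, by 1.81, and Krt17, an epithelial keratin, by 1.73. Laptm5, Fam25c, C2 and Krt17 were each under 1 deposited TPM in 1 mutant, so they too needed XX libraries to pass the filter. H19, the imprinted non-coding RNA next to Igf2, had 43.0, 41.2 and 42.6 in XX and 6.73, 14.3 and 14.2 in the mutants (difference -1.83, SE 0.26, adjusted p 0.0228). Mid1, an X-linked ubiquitin ligase gene at the edge of the pseudoautosomal region, had 16.2, 22.5 and 24.9 against 2.09, 1.11 and 5.67, a difference of -2.64 in EpiLC (adjusted p 0.0265) and of -2.71 in mESC, where it was not called (adjusted p 0.102). The last 3 were non-coding. AY036118 and CT010467.1 overlap on chromosome 17, the second annotated as ribosomal RNA, and ranged from 1219 to 3602 and 1516 to 4054 scaled TPM in XX and from 0 to 82.6 and 47.7 to 227 in the mutants. In rRNA-depleted libraries these 2 also varied among mESC libraries of 1 group, from 0 to 3022 for AY036118 in Tet3-/- mESC. Gm24610, a small nucleolar RNA gene, was listed at 0 in all mutants and had 6.35 to 12.4 in XX, through which alone it passed the filter.

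**Figure D3:**
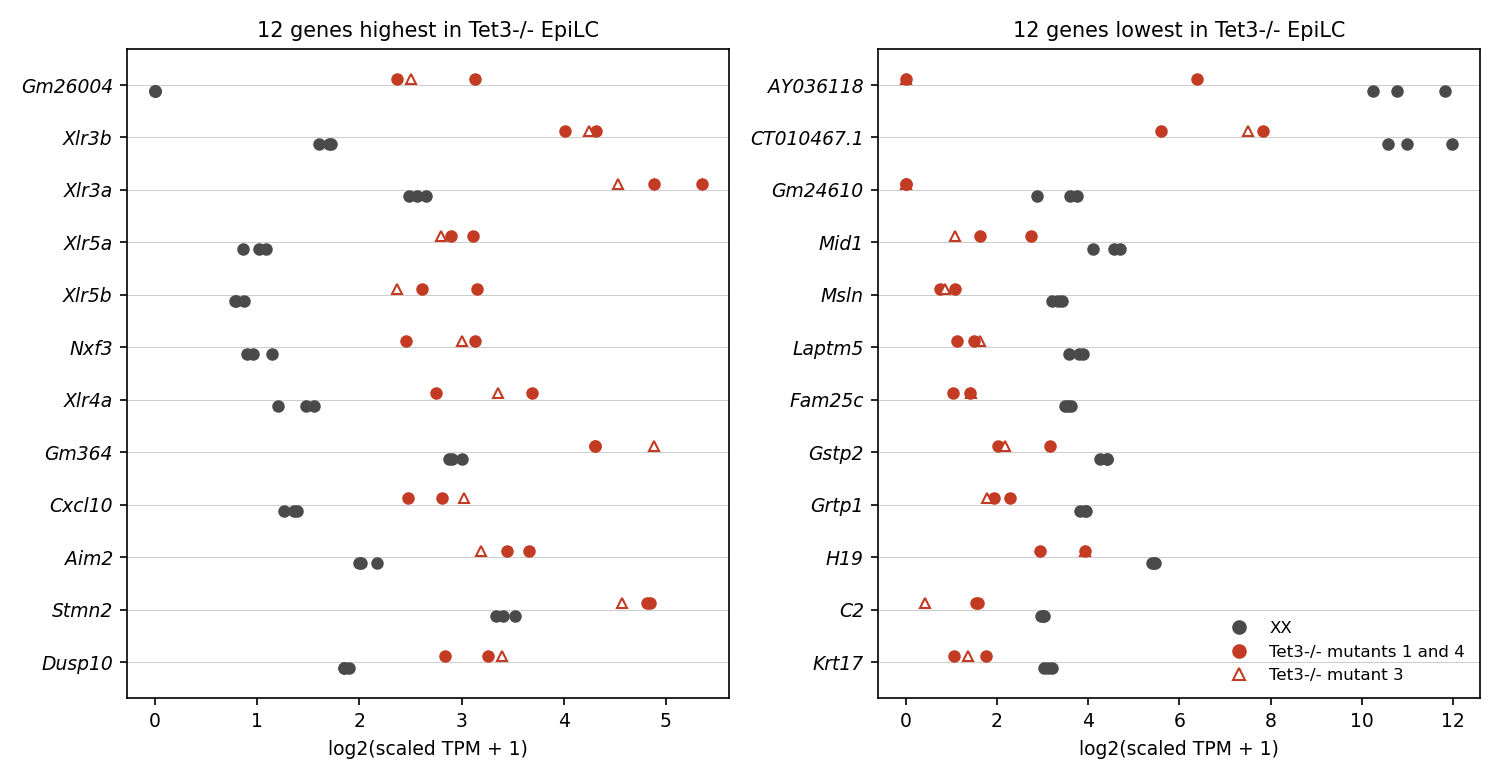
Log2(scaled TPM + 1) per EpiLC library for the 12 called genes with the highest and the 12 with the lowest difference, with grey points for XX and red for Tet3-/-. The groups do not overlap in any of the 24 genes, which the naming rule required, and mutant 3 (open triangle) lies within or near the other mutants.

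Several further lists are described by their counts. Over all tested genes, 1.49% were called higher and 2.15% lower with all libraries, and 7.15% and 8.35% without mutant 3. The lists are short, so a few calls are not read as a result about a list. Of 26 tested imprinted genes, H19 and Slc22a18 were called lower and 0 higher, with a median of -0.27; Slc22a18 passed the filter through XX alone. Without mutant 3, 3 imprinted genes were called higher and 7 lower, with a median of -0.12, Peg10, a retrotransposon-derived gene, being the lowest after H19 (-1.11). Peg10 had 61.0 to 71.0 scaled TPM in XX, 28.9 and 30.9 in mutants 1 and 4, and 141 in mutant 3. Mutant 3 thus went the other way. Of 11 genes of the methylation machinery 0 were called with all libraries and 3 were lower without mutant 3, namely Tet1, Tet2 and Dnmt3l, the cofactor of the de novo methyltransferases. Dnmt3l had 16.1 to 17.9 scaled TPM in XX and 3.51, 9.29 and 7.60 in the mutants, while Dnmt1 and Uhrf1, which copy methylation after replication, overlapped. Of 7 tested germline genes known to be silenced by methylation, 1 was called higher, Mael, a piRNA pathway gene at 1.69 to 1.90 in XX and 4.17 to 5.93 in the mutants; its start lies in the chromosome 1 stretch below, and the list's median was -0.20. Without mutant 3, 3 of these genes were called higher and 1, Sycp3 of the meiotic chromosome axis, lower, with a median of -0.06. Of 7 tested primordial germ cell genes, Tcl1, a co-activator of AKT that is high in naive cells, was the 1 called (4.72 to 5.16 against 0.353 to 1.08, difference -1.86, adjusted p 0.00637), with a list median of -0.18. Without mutant 3, 4 were called lower, Tcl1, Tfap2c, Prdm1 and Dppa3, and the median was -0.53. Tcl1 and Prdm1 were under 1 deposited TPM in mutants 1 and 4. In that fit these 2 genes passed the filter through XX alone, which sets their direction. Zfp57, which guards imprints, and Ehmt2, an H3K9 methyltransferase, were called lower among 12 genes of retroelement silencing, and Mtf2, a polycomb accessory subunit, among 15 polycomb genes, where it had 58.5 to 62.0 in XX and 35.5 to 39.0 in the mutants. Without mutant 3 the counts were 4 lower for retroelement silencing, with the median moving from -0.16 to -0.27, and 3 lower for polycomb, from -0.07 to -0.18.

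Signalling lists are set beside the shares of all tested genes called. These were 1.49% higher and 2.15% lower with all libraries, and 7.15% and 8.35% without mutant 3. With all libraries such shares leave little room for a call in lists of this length. With all libraries 0 of 17 FGF and ERK genes, 0 of 14 Nodal and Activin genes, 0 of 7 Wnt targets and 0 of 9 BMP genes were called; without mutant 3 the counts higher and lower were 2 and 2, 1 and 4, 1 and 0, and 2 and 2. The medians of the FGF and Wnt lists changed sign without mutant 3, from 0.18 to -0.04 and from 0.14 to -0.10. Dusp6, an ERK phosphatase and reporter of FGF signalling, had 15.4 to 16.2 scaled TPM in XX, 24.6 and 26.0 in mutants 1 and 4, and 50.1 in mutant 3. Lefty1 and Lefty2, feedback inhibitors of Nodal whose genes lie in the chromosome 1 stretch below, were low in mutants 1 and 4: Lefty2 had 10.5 to 11.7 in XX, 1.26 and 2.61 in mutants 1 and 4, and 10.5 in mutant 3. Without mutant 3 the Lefty2 difference was -2.03 (adjusted p 0.00372). Of 14 tested p53 targets 12 had a positive difference and 1 was called, Phlda3, at 45.8 to 47.4 in XX and 64.3 to 70.2 in the mutants; without mutant 3, 5 were called higher, and the list's median was 0.23 with it and 0.18 without. Cldn4, a tight junction claudin, and Krt7, a keratin, were called lower among 16 epithelial genes (median -0.22), and Cnn1, a calponin, was called higher among 12 contractile genes (median 0.23). Without mutant 3, 4 epithelial genes were called lower (median -0.13) and 4 contractile genes higher (median 0.40), and of 7 mesenchymal genes 3 were called higher, against 0 with it.

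Markers of other cell types were summed over whole lists. Counted over each whole list, tested or not, neural genes had 29.1 to 31.2 scaled TPM in XX and 39.5, 65.8 and 44.3 in mutants 1, 3 and 4, and fibroblast genes 8.87 to 9.93 and 8.13 to 10.0. Sox1, Pax6 and Neurog2, which define neural cells, were at or under 0.321 in all 6 libraries on the 9-library scale, Col1a1 and Col3a1 at or under 0.601, and Col1a2 at or under 1.24. Primitive endoderm genes summed to 159.7 to 165.7 in XX and 221, 163 and 185, with Gata4 at or under 0.951, Gata6 at 1.69 in mutant 3 and at most 0.351 in the other 5, and Sox17 at 2.72 and at most 0.153, and trophoblast genes to 389 to 396 and 483, 438 and 348, with Cdx2 at most 0.0526 outside mutant 3 (1.08). Thy1 of the fibroblast list and Ascl2 and Krt7 of the trophoblast list were called lower, the first 2 having passed the filter through XX alone. Their part in the results was not tested.

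Differences also followed position. In 251 windows of 10 Mb with at least 10 tested genes the median difference was within 0.2 of 0 in 244 and beyond 0.35 in 4, all on distal chromosome 1 or 5. Boundaries of 3 stretches were then set from these values, so what follows is a description. On chromosome 1 from Gpa33 (start 166130238) to Kctd3 (end 189007841), 38 of 120 tested genes (31.7%) were called higher and 1 lower, with a median of 0.52, a ratio of 1.44. Next to it, from Pdcd5-ps (189277443) to Gm38194 (195323493), 17 of 33 genes (51.5%) were called lower and 0 higher, with a median of -0.71, a ratio of 0.613. On chromosome 5 from Zkscan1 (138085084) to Rfc3 (151651242), 32 of 115 genes (27.8%) were called higher and 0 lower, with a median of 0.52, a ratio of 1.43. Among the other 11846 genes 110 (0.929%) were called higher and 243 (2.05%) lower. Pea15a, a regulator of ERK localisation on chromosome 1, had 7.52 to 7.86 scaled TPM in XX and 17.2, 23.2 and 16.1 in mutants 1, 3 and 4. Nek2, a centrosomal kinase in the lowered stretch, had 16.0 to 16.3 and 6.61, 5.93 and 7.10, and Cenpf, a kinetochore protein beside it, 25.9 to 29.2 and 13.2, 9.03 and 11.7. Atp5j2, an ATP synthase subunit on chromosome 5, had 68.8 to 76.8 and 129, 143 and 151. The groups were clear of each other in each of these genes.

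The mESC libraries had no part in setting those boundaries. There the medians were 0.49, -0.82 and 0.54 for the 3 stretches in the same order, and 99 of 104, 23 of 26 and 102 of 106 genes had the sign of the stretch. By library, the 4 Tet3-/- mESC libraries lay at 0.38 to 0.52, -0.75 to -0.66 and 0.45 to 0.57 log2 units from the XX mean, the 3 Tet3-/- EpiLC libraries at 0.46 to 0.52, -0.73 to -0.69 and 0.47 to 0.68, and the XX libraries at -0.08 to 0.06. All 7 mutant libraries thus shared the pattern, mutant 3 included. Its cause was not tested.

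**Figure D4:**
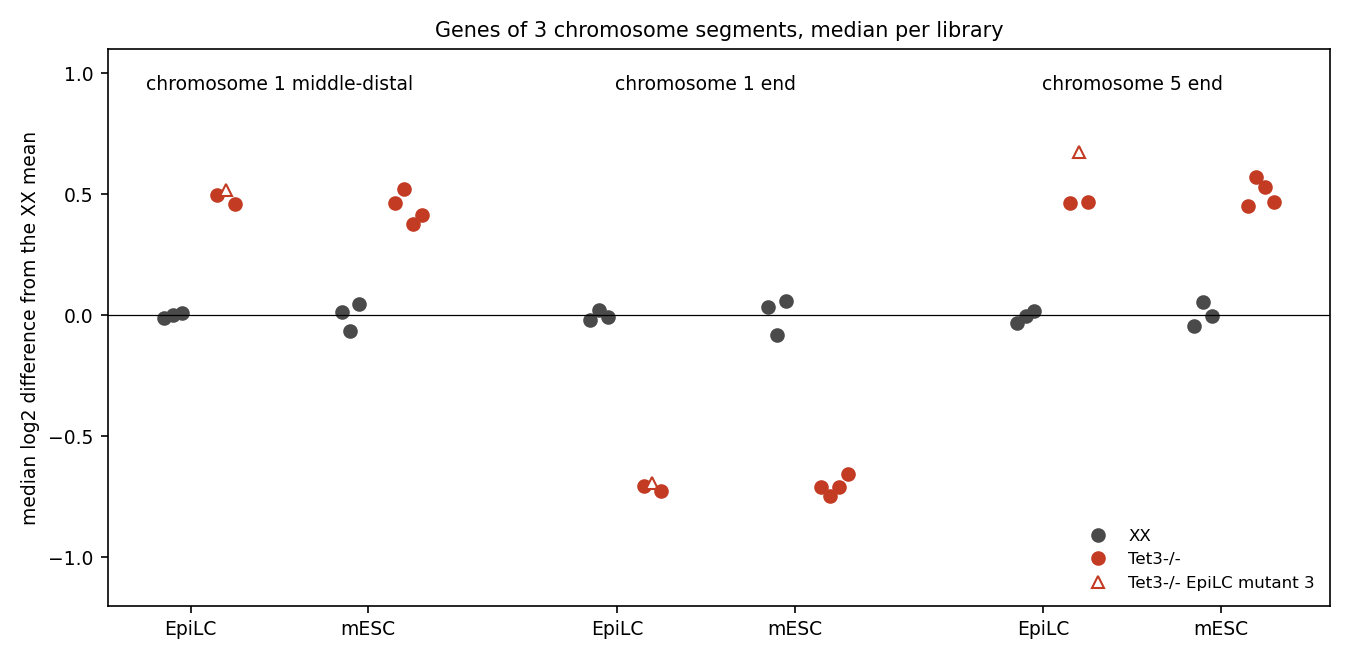
Median log2 difference from the XX mean of the same state, per library, over the tested genes of 3 chromosome stretches in EpiLC and mESC. Tet3-/- libraries lie near 0.5 in the stretches of chromosome 1 middle-distal and chromosome 5 end, near -0.7 at the end of chromosome 1, and XX libraries near 0.

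The same contrast in mESC called 5 of 12296 genes (0.0407%), all lower: Klf5, Kdelr3, Cr1l, Smyd2 and n-R5s112, of which Cr1l and Smyd2 lie in the lowered stretch. At an unadjusted p under 0.05 there were 1557. XX mESC library 2 stood apart, for example with 523 scaled TPM of Fam25c against 109 and 89.5, and without it 751 genes were called. Of the 441 genes called in EpiLC, 367 were tested in mESC, 303 had the same sign there, and 2 were called. The 441 include the calls in the chromosome stretches above, where nearly all genes had the sign of the stretch in mESC. Agreement in sign was not counted outside the stretches or over all tested genes. The test of the difference between the states called 48 of 13679 genes (0.351%), 12 with a higher and 36 with a lower difference in EpiLC, and 36 of them were among the 441. The naive list had a median of -0.15 in mESC. For Esrrb the difference between the states was -1.49 (adjusted p 0.0503) and for Sox2 -1.26 (adjusted p 0.00205), with 76.7 to 80.3 scaled TPM of Sox2 in XX mESC and 87.6 to 99.3 in Tet3-/- mESC. For Klf5 it was 0.19 (adjusted p 0.977), with Klf5 called lower in mESC (-1.52) and, in EpiLC, without mutant 3 alone.

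**Figure D5:**
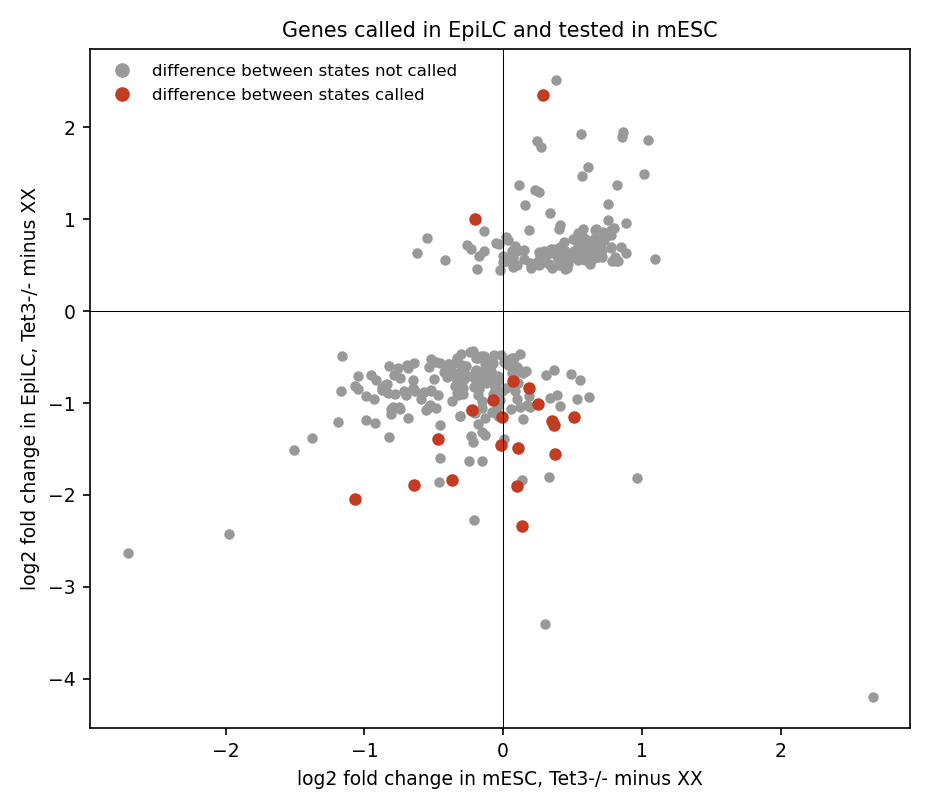
Log2 difference of Tet3-/- minus XX in mESC (horizontal) and in EpiLC (vertical) for the 367 genes called in EpiLC and tested in mESC; red points were called in the test of the difference between states. Genes were chosen by their EpiLC value, and those of the chromosome stretches are among them. The sign is the same in both states for 303.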

How the data were processed

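Stranded total RNA libraries were made after ribosomal RNA depletion, per the labels' protocols. The submitters' processing notes name FastQC 0.11.7, Trimmomatic 0.35, Salmon 1.1.0 and the build GRCm38. The authors deposited TPM per transcript for all 19 libraries, and each column sums to 1000000. TPM keeps no depth, so read depth is unknown here and counting error cannot be given.

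TPM was added up over the transcripts of each gene in GENCODE M21. Of 140948 transcripts, 139357 matched with and 495 without version, and 1096 did not match (at most 0.215% of TPM). Genes with at least 1 TPM in at least 3 libraries of a comparison were scaled by median of ratios, and limma 3.58.1 in R 4.3.3 (lmFit, contrasts.fit, eBayes with a trend) was fitted to log2(scaled TPM + 1), with 6 libraries for EpiLC, 7 for mESC and 13 for the difference between states. P-values were adjusted by Benjamini-Hochberg over all tested genes. Named genes were the 12 highest and 12 lowest log2 differences among called genes with a mean of at least 5 scaled TPM in the higher group and no overlap (303 genes met this), Tet3, Xist and list genes. Genes named for the chromosome stretches and for mutant 3 were chosen after their values were seen. The members and lists were chosen with earlier results of these data known. On simulated data with 200 changed genes among 11986, the EpiLC fit recovered 69% of 2-fold and 92% of 4-fold changes, and called 13 unchanged genes. The changed genes had over 5 scaled TPM in XX library 1. Each gene had the same spread in all simulated libraries, with none set apart as mutant 3 was. The rates therefore do not cover genes nearer the filter. Alternatives were other pseudocounts, filters, scalings, sets of libraries, variance priors, library weights, a replicate block and each library left out. Promoters are from RefSeq (GRCm38.p6). Replicate numbers 1 and 3 are shared by the groups, but the deviations of same-numbered libraries correlated at 0.06 and 0.07, so they were not treated as pairs. Python 3.11.15 was used for tables and figures.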

Additional observations from a re-analysis of the deposited data

Results flagged for a closer look

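In 47 sets of 4 Tet3-/- mESC values, 2 held a library far from the other 3 by Dixon's test, and chance gives about 1 in 20. Aim2 had 40.5 scaled TPM in mutant 4 and 31.4 to 32.0 in the others, and Mid1 had 4.14 in mutant 4 and 0.162 to 0.35 in the others.

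For 9 of the 272 named and list genes the log2 difference of Tet3-/- minus XX was not the same in EpiLC and in mESC by limma's test of that difference. Over all 13679 genes that test called 48 (0.351%). The highest and lowest named genes were picked by their EpiLC difference, which is part of the value tested. Their share is therefore raised by that choice. The log2 difference was more negative in EpiLC for Laptm5 (-2.48), Gstp2 (-2.01), Krt17 (-1.64), Sox2 (-1.26), Grtp1 (-1.26) and Nr5a2 (-0.997). It was more positive for Cnn1 (0.94), Cxcl10 (1.38) and Xlr3a (2.06), with limma adjusted p from 0.00205 to 0.0383 over the 9 genes. Nr5a2, an orphan nuclear receptor of naive cells, was not called in EpiLC (-0.72, adjusted p 0.0609). Krt17, Cnn1 and Cxcl10 were under the filter in mESC.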

How the results depend on the processing

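All 52 called genes among the named and list genes kept their sign under each of up to 18 alternatives in which they were tested, although 9 of the 52 passed the filter through 1 group alone, which sets their sign. Called under all of them were Xlr3b, Msln and Fam25c, and Gm24610, which is among the 9. The 9 are genes with at least 1 TPM in all 3 libraries of 1 group and in 0 of the other. Msln and Fam25c are not among them, but needed XX libraries to pass. Without mutant 3, Msln passed through XX alone, with 0.573 and 0.809 deposited TPM in mutants 1 and 4. List medians moved by more than their SD between mutants 1, 3 and 4 in EpiLC in 44 of 439 cases. That SD is wide for lists in which mutant 3 stood apart. For the FGF and ERK list the medians of mutants 1, 3 and 4 were -0.02, 0.79 and -0.04 from the XX mean. The numbers of EpiLC calls moved far more. Against 180 higher and 261 lower genes, there were 6 and 36 with TPM as deposited, 18 higher with protein-coding rescaling, 344 and 482 with 19 libraries, 456 and 561 with 9 EpiLC libraries, 12 and 49 of 40783 genes without a filter, 116 and 151 of 7594 genes at 5 TPM or more, 2199 and 2367 with library weights, and 23 and 85 with a log2 difference of at least 1 as well. The lower count with protein-coding rescaling (200), and both counts with a pseudocount of 0.1, quantile normalisation, no trend and robust priors, stayed within 1.5 times. Leaving out 1 library gave 1 to 847 higher and 2 to 988 lower genes. Outside the 3 chromosome stretches, an alternative chosen after seeing the data, 110 genes were higher.

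Against 5 mESC calls there were 0 with TPM as deposited and 471 with 19 libraries, and 0 to 751 without 1 library. Against 48 calls of the difference between states there were 25 with a pseudocount of 0.1, 20 with TPM as deposited and 101 with 19 libraries, and 7 to 240 without 1 library, the highest count being without XX mESC library 2; without mutant 3 it was 114. With the replicate number as a block (replicate block), although the numbers do not pair the libraries, 13 higher and 21 lower genes were called in EpiLC, 0 in mESC and 10 in the difference. The cause of these shifts was not tested. TPM without depth limits what can be said of genes near the filter.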
